A study of Mus musculus with 3 samples.

Results

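The genes described here encode the subunits of the constitutive proteasome and its regulatory particles. They were taken as every row of the count table whose symbol begins with Psm, continues with 1 of the letters a to e and ends in a number. That pattern matched 43 rows. The 3 inducible catalytic subunits of the immunoproteasome (Psmb8, Psmb9 and Psmb10) were set aside, which left 40 members of 20471 genes. The series measured gene expression in wild-type mouse embryonic fibroblasts (MEF), connective tissue cells grown from embryos, by DRUG-seq2, in which lysates of single wells are barcoded during reverse transcription, pooled and sequenced. Its 3 samples are 3 whole plates. The compound wells held cells treated for 4 days with a compound of a purchased kinase inhibitor collection, in CFAE+8 medium. Plate 1 gave 90 usable compound wells, plate 2 gave 87 and plate 3 gave 41. Plate 3 had another 30 wells that carried the name of a medium and no compound: 4 MEF, 3 basal, 3 bCFAE, 5 bC8FAE, 3 bC6FAE[2], 4 bC6FAE[10], 4 bCLFAE and 4 bCSFAE. What the letters and numbers in these names stand for, how long the media wells were cultured and the compound concentrations are details not given in the sources used here. None of the wells is named as a vehicle control. The bC8FAE wells were taken from their name as the screening medium without a compound. Whether wells of the same name came from separate cultures is not stated, so p-values measure only the spread between wells, which may be technical.

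The proteasome degrades proteins tagged with ubiquitin. Its 20S core is a barrel of alpha rings, which gate the entry, around beta rings, which carry the proteolytic sites. The 19S regulatory particle caps the core: a ring of ATPases unfolds the substrate, and the non-ATPase subunits recognise ubiquitin, remove it and hold the particle together. Other caps, the PA28 proteins and PA200, open the core without ATP. In mammalian cells the subunit genes can rise together when proteasome activity falls short, through the transcription factor NFE2L1, and several are also targets of the oxidative stress factor NFE2L2.

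By subcomplex, the 40 members were 8 of the 20S alpha ring, 8 of the 20S beta ring, 6 ATPases and 11 non-ATPases of the 19S particle, 3 assembly chaperones of the 19S base (Psmd5, Psmd9 and Psmd10) and 4 activators (Psme1 to Psme4). Over the media wells the members with the highest mean level were Psmb6, which encodes the beta subunit with caspase-like activity, at 657 ± 66.5 counts per 1000000 counts of the well (CPM; SD, n = 30 wells), and Psmb1, a non-catalytic beta subunit, at 525 ± 51.9 CPM. The lowest were Psmb11, the thymus-specific form of the catalytic subunit Psmb5, with 0 counts in the 30 wells, which allows up to 0.221 CPM (3 counts over all wells, counting error only), and Psma8, the testis-specific form of Psma7, with 1 count. Psma5, an alpha subunit, was the lowest of the 38 members that could be tested, at 18.2 ± 6.34 CPM. These CPM values were scaled by the library total and not by transcript length, so they rank how often each gene was counted and not how much of each RNA the cells held. Psme2 has a near-identical copy, Psme2b, in the mouse genome, and the labels do not say how reads were split between the pair.

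All 10 fibroblast markers examined were detected in the media named in the results. The total count per usable compound well was 45416 to 591025 on plate 1, 92437 to 1206219 on plate 2 and 222067 to 703918 on plate 3. The media wells had 119295 to 726228 counts, and the lowest were bC8FAE well 4 (119295) and MEF well 3 (138747). A further 4 compound wells were left out because their totals were under 10% of their plate's median. The 2 wells without cells held 4280 and 25308 counts.

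The core promoters of the members are shown first, since the results turn on subunit genes that moved together. RefSeq promoter windows on GRCm38.p6, from 250 bases before the start of a gene to 50 bases after it, were held for 33 of the 40 members. The core of the antioxidant response element, TGACNNNGC on either strand, which NFE2L1 and NFE2L2 recognise together with small MAF proteins, was found in 6 of the 33 windows (18.2%), beside 12.4% of all 32851 windows of that length. The CCAAT box, CCAAT on either strand, was found in 13 of 33 (39.4%), beside 37.4% of all windows. By their letters the pair of motifs cannot contain each other. The 6 windows with an antioxidant core are given with up to 15 bases on each side, 5′ to 3′ along the gene's strand. Capitals mark the core, which lies on the opposite strand in Psmc6, Psmd12 and Psme4.
Psmb5, chr14:54618019-54618057, minus strand: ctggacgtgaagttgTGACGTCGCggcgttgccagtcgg
Psmb6, chr11:70525333-70525371, plus strand: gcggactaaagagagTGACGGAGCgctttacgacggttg
Psmc6, chr14:45329582-45329620, plus strand: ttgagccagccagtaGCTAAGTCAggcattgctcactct
Psmd12, chr11:107479278-107479304, plus strand: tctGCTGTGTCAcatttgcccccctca
Psmd9, chr5:123228144-123228182, plus strand: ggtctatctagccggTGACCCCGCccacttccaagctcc
Psme4, chr11:30771753-30771791, plus strand: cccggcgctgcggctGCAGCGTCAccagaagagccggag
Psmc2, the ATPase gene with the largest rise in several comparisons, had no antioxidant core in its window. Its upstream 200 bases (GRCm38.p6 chr5:21785075-21785274, plus strand) are shown with the CCAAT box in capitals, which begins 28 bases before the start:
Psmc2: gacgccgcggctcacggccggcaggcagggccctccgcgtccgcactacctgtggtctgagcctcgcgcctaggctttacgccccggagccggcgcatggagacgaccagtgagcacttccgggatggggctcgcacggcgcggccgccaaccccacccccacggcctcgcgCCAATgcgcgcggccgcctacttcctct
A motif match is a description of these letters and not a measured binding site.

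The first question was whether the culture medium changed proteasome gene expression. The summed level of the 40 members differed between media. It was lowest in MEF wells, at 5782 ± 171 CPM (SD, n = 4 wells), and in basal wells, at 6025 ± 196 CPM (n = 3). The highest was bCFAE with 7850.5 ± 103 CPM (n = 3). The bC8FAE wells had 6999.7 ± 319 CPM (n = 5), bC6FAE[2] 6648 ± 172 CPM (n = 3), bC6FAE[10] 6548 ± 121 CPM (n = 4), bCLFAE 7347 ± 294 CPM (n = 4) and bCSFAE 7293 ± 155 CPM (n = 4). In order of the mean, the wells of MEF (5568 to 5957) and basal (5910 to 6251) overlapped. From bC6FAE[10] (6407 to 6700) through bC6FAE[2] (6468 to 6809), bC8FAE (6521 to 7359) and bCSFAE (7061 to 7382) to bCLFAE (6972 to 7605), each medium overlapped with the next. Scaled by the library total, every bCFAE well (7737 to 7938) lay above every well of the other media. Every MEF and basal well lay below every well of the remaining media. The tests below also scaled each well by a composition factor (TMM). That factor was 0.925 to 0.955 in basal and 1.02 to 1.03 in bCFAE wells, and a higher factor lowers the scaled level. The sums were not recomputed with it, so their order and separation hold for library totals only.

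**Figure D1:**
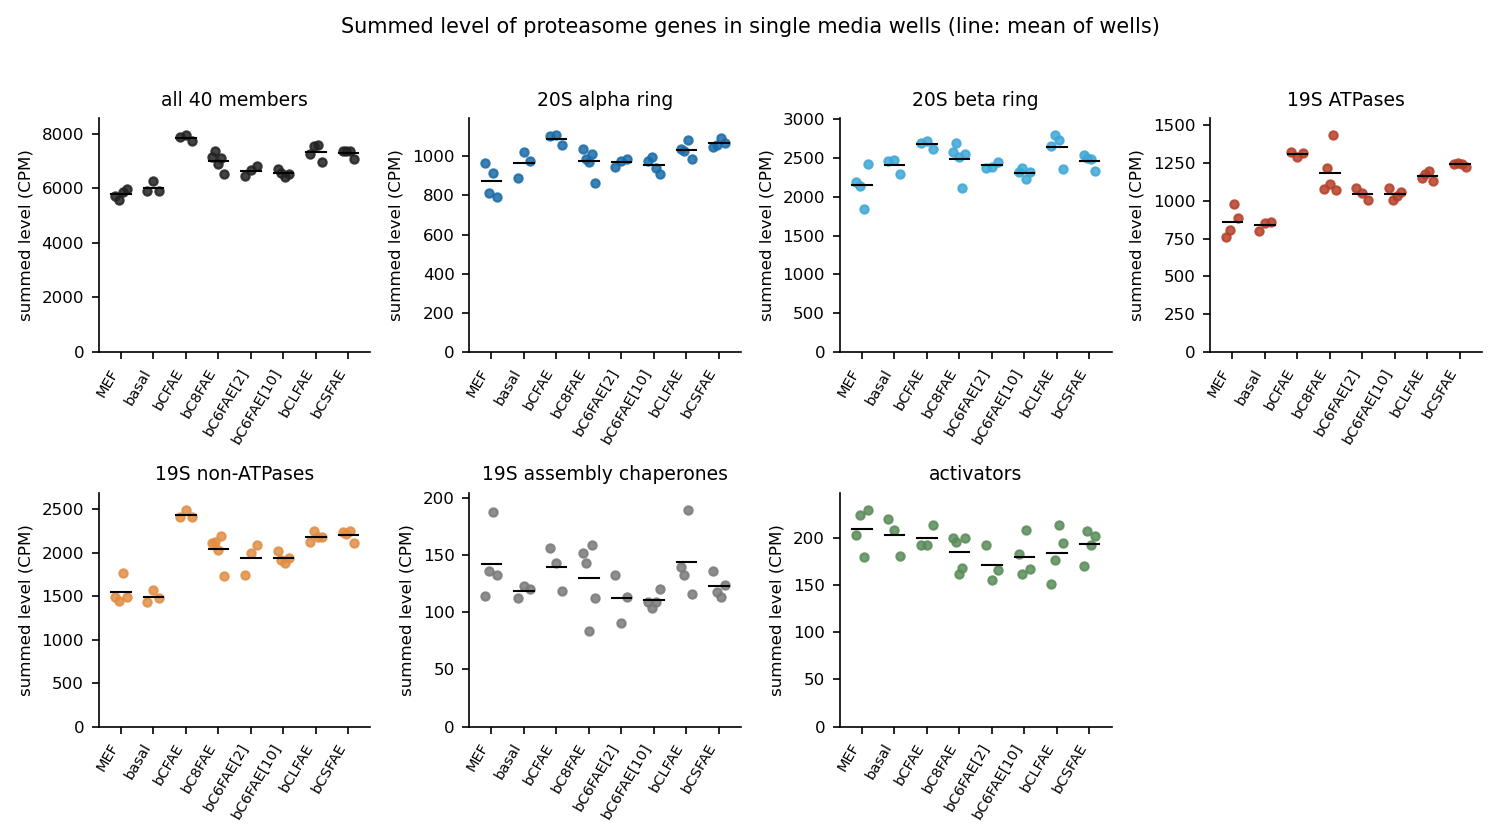
Summed level of proteasome subunit genes (CPM of the library total, vertical axes from 0) in each media well of plate 3, for all 40 members and for each subcomplex; points are wells and the line is their mean. On this scale the bCFAE wells sit between 7737 and 7938 CPM for all members, above every other well. The difference from basal is larger for the 19S ATPases and non-ATPases than for the 20S alpha and beta rings.

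Most of this difference lay in the 19S particle. The 6 ATPase genes summed to 839 ± 33.6 CPM in basal and 1308 ± 18.1 CPM in bCFAE wells, with ranges of 801 to 862 and 1287 to 1321. The 11 non-ATPase genes summed to 1489 ± 69.2 CPM in basal and 2435 ± 45.7 CPM in bCFAE. For both subcomplexes the wells of the 2 media did not overlap. The 20S beta ring sums differed less, with 2295 to 2475 CPM in basal and 2619 to 2720 in bCFAE. The 20S alpha ring had 891 to 1025 CPM in basal and 1058 to 1107 in bCFAE. In the test with TMM scaling, the median log2 fold change was −0.09 for the alpha genes and 0.09 for the beta genes. These 20S ranges are therefore not read as a rise.

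Gene by gene, bCFAE was compared with basal by edgeR's quasi-likelihood test in 1 fit of all 30 media wells, with Benjamini-Hochberg adjustment over 6985 genes. Adjusted p-values below come from this test unless another is named, and called genes are those with an adjusted p under 0.05. Of the 38 members tested, 13 rose and 2 fell (39.5%), while 34.5% of all genes were called. Over all 6985 genes, 1141 rose and 1270 fell. The shares called are close, so the number of calls is not read as particular to the proteasome genes. The median log2 fold change of the members was 0.33, against 0.0028 over all genes tested, and 27 of the 38 were above 0. The calls were unevenly spread: 4 of 6 ATPases (median log2 fold change 0.73) and 6 of 11 non-ATPases (median 0.55) rose, but only 1 of 7 alpha subunits (median −0.09) and 1 of 7 beta subunits (median 0.09). None of the 3 chaperones was called.

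Among the 19S non-ATPases, Psmd2, the large scaffold subunit that receives ubiquitin carriers, had 144, 132 and 101 CPM in the basal wells and 227, 264 and 337 CPM in the bCFAE wells. It rose by a log2 fold change of 0.97 ± 0.18 (SE; adjusted p = 1e-05). Psmd13, a structural lid subunit, had 203, 197 and 193 CPM in basal and 352, 405 and 356 CPM in bCFAE. Every bCFAE well of both genes was above every basal well. Psmd12, another lid subunit and one of those with an antioxidant core in the window above, had 53.6, 32.3 and 63.4 CPM in basal and 108, 101 and 97.7 CPM in bCFAE. Its log2 fold change was 0.91 ± 0.22 (adjusted p = 0.0006). Psmd4, a ubiquitin receptor, Psmd8 and Psmd3, both lid subunits, rose by 0.63, 0.55 and 0.43 on the log2 scale.

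The ATPases that rose were Psmc2 (log2 fold change 0.86), Psmc5 (0.85), Psmc4 (0.83) and Psmc3 (0.63). Psmc4 had 118, 194 and 105 CPM in basal and 260, 264 and 295 CPM in bCFAE (log2 fold change 0.83 ± 0.17, adjusted p = 0.00012). Psmc3 had 276, 217 and 285 CPM in basal and 439, 413 and 482 CPM in bCFAE. The wells of the 2 media did not overlap for either gene.

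In the 20S core the beta subunit with trypsin-like activity, Psmb7, rose from 36.6, 17.6 and 38.0 CPM to 60.2, 63.3 and 62.8 CPM (log2 fold change 0.87 ± 0.28, adjusted p = 0.011). The alpha subunit Psma7 rose by 0.49 ± 0.14 (adjusted p = 0.0057). The most counted core subunit, Psmb6, had 702, 711 and 717 CPM in basal and 683, 694 and 721 CPM in bCFAE, with overlapping wells. Psmb4, a non-catalytic beta subunit, had 502, 511 and 399 CPM against 563, 523 and 512 CPM and was not called.

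The activators moved apart. Psme3, which forms the nuclear PA28 gamma cap, had 42.3, 55.8 and 31.7 CPM in basal and 75.2, 82.6 and 69.8 CPM in bCFAE (log2 fold change 0.67 ± 0.26, adjusted p = 0.037). The interferon-inducible pair that forms the cytosolic PA28 cap went the other way. Psme1 had 130, 120 and 108 CPM in basal and 78.2, 70.2 and 105 CPM in bCFAE, a log2 fold change of −0.68 ± 0.19 (adjusted p = 0.0044). Psme2 had 31.0, 26.4 and 38.0 CPM in basal and 15.0, 16.5 and 23.3 CPM in bCFAE, a log2 fold change of −0.97 ± 0.36 (adjusted p = 0.031). The immunoproteasome subunit Psmb10, which was not a member, fell by 1.03 on the log2 scale.

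Some macrophage markers differed between the same media. Of 6 listed, 5 were in the table and 4 were detected. Their summed level was 129 to 285 CPM in basal and 48.9 to 52.3 CPM in bCFAE. Lyz2 had 73.4 to 222 CPM in basal and 17.9 to 23.3 CPM in bCFAE, and Tyrobp 32.3 to 45.1 and 4.65 to 10.5 CPM. The wells overlapped for Cd68 (8.46 to 25.4 and 19.6 to 22.0 CPM) and Csf1r (0 to 5.87 and 0 to 2.75 CPM). The defining marker Ptprc was at 0 in all media wells. The adipocyte markers summed to 149 to 279 CPM in basal and 2.33 to 4.13 CPM in bCFAE, and the neural markers to 29.4 to 53.6 and 131 to 140 CPM. The fibroblast markers summed to 7355 to 7663 CPM in basal and 6148 to 6718 CPM in bCFAE, and the epithelial markers to 15.9 to 32.3 and 54.2 to 81.4 CPM. The part of these differences in the fall of Psme1, Psme2 and Psmb10 or in the rise of the 19S genes was not tested. In bulk wells, fewer cells of a type and less RNA per cell cannot be told apart.

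When counts were scaled by the library total alone, the median log2 fold change of all genes moved up by 0.13, and 17 members were called higher and 1 lower. Psme2 was then not called (log2 fold change −0.84).

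**Figure D2:**
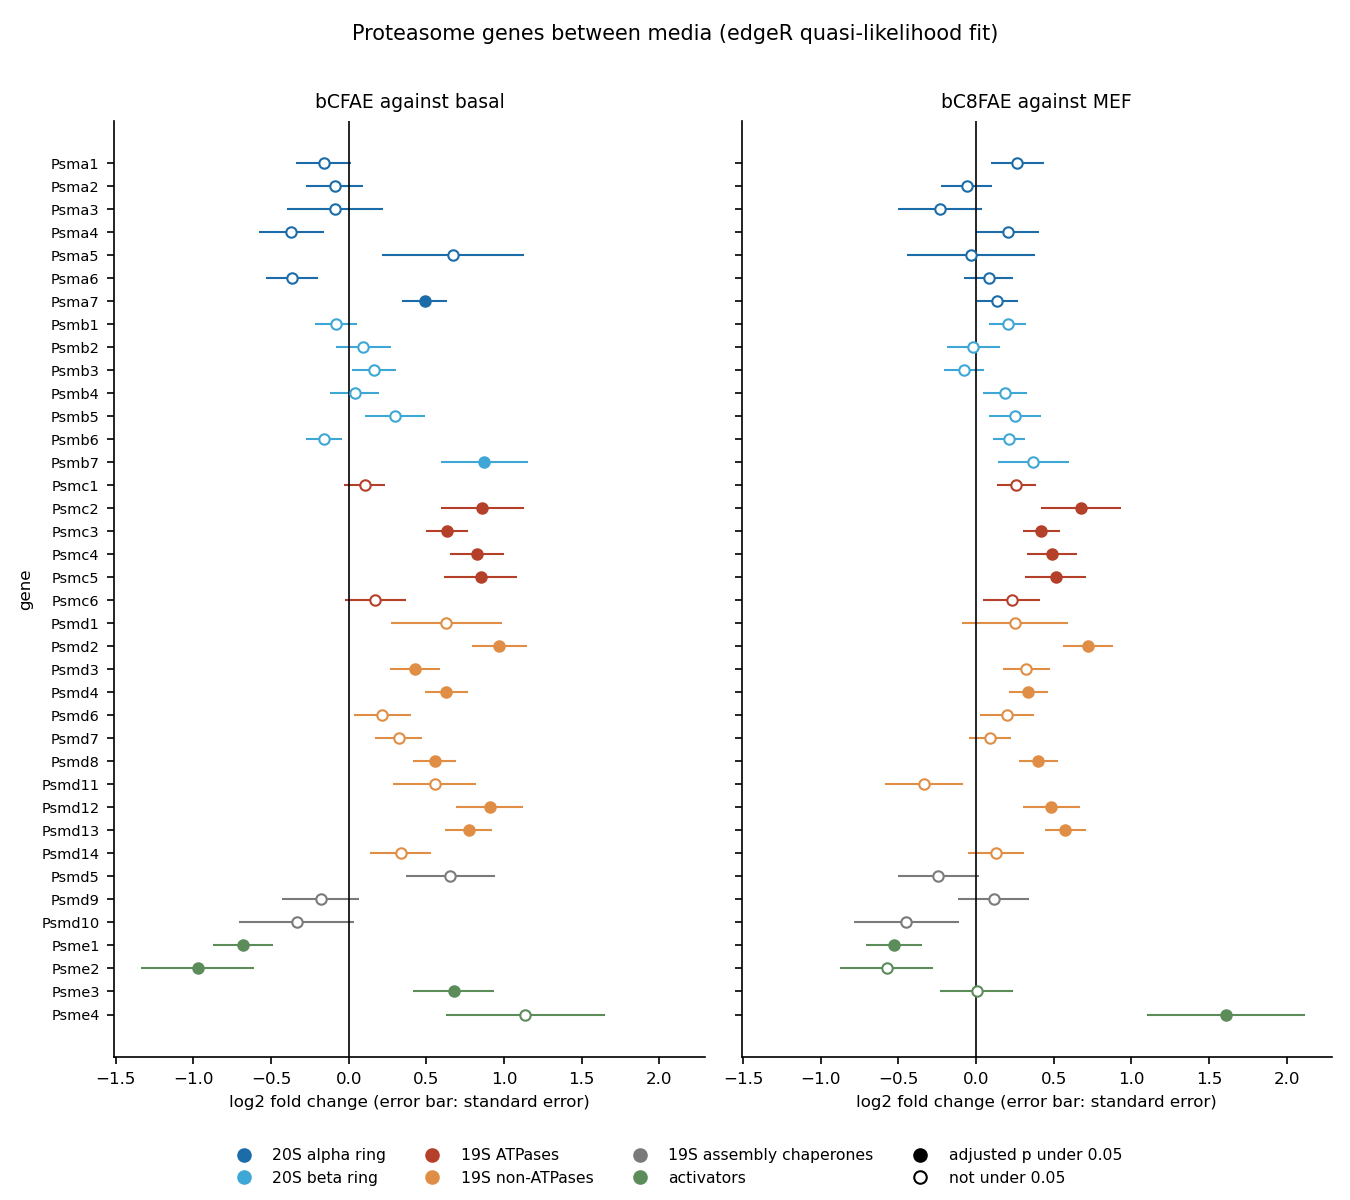
Log2 fold changes (edgeR, with 1 SE) of the 38 tested proteasome subunit genes for bCFAE against basal and bC8FAE against MEF, grouped by subcomplex; filled points passed an adjusted p under 0.05. The 19S ATPases and non-ATPases lie mostly to the right of 0, while Psme1 and Psme2 lie to the left.

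The second comparison of this kind, bC8FAE against MEF, used none of the wells of the first. Here 10 members rose and 1 fell of 38 (28.9%), while 32.1% of all genes were called. Over all genes, 1061 rose and 1180 fell. The shares called are again close, and the counts by subcomplex are a description only. The median log2 fold change was 0.20 for the members and 0.015 over all genes. The ATPases again had 4 of 6 called higher (median 0.45) and the non-ATPases 5 of 11 (median 0.32). No alpha subunit, beta subunit or chaperone was called. A total of 9 members rose in both comparisons, namely Psmc2, Psmc3, Psmc4, Psmc5, Psmd2, Psmd4, Psmd8, Psmd12 and Psmd13. They made up 69.2% of the members that rose in bCFAE and 90% of those that rose in bC8FAE. Over all genes, 636 rose in both, which was 55.7% and 59.9% of the 2 lists.

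Psmd2 had 143, 128, 187 and 86.1 CPM in the MEF wells and 239, 252, 202, 335 and 156 CPM in the bC8FAE wells (log2 fold change 0.72 ± 0.16, adjusted p = 0.00027). The lowest bC8FAE well lay below the highest MEF well. Psmd13 had 195, 190, 231 and 237 CPM in MEF and 350, 324, 402, 243 and 261 CPM in bC8FAE (log2 fold change 0.58 ± 0.13, adjusted p = 0.00048), with no overlap. The other 19S genes that rose had log2 fold changes from 0.34 (Psmd4) to 0.67 (Psmc2).

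The largest rise was that of Psme4, which encodes PA200, a nuclear activator of the core. It rested on few counts. The MEF wells held 4, 1, 0 and 3 counts and the bC8FAE wells 9, 10, 10, 3 and 8, which were 0 to 10.8 CPM and 17.8 to 25.3 CPM. The log2 fold change was 1.61 ± 0.51 (adjusted p = 0.011). Psme1 fell again, from 101 to 123 CPM in MEF wells to 53.1 to 94.9 CPM in bC8FAE wells (log2 fold change −0.53 ± 0.18, adjusted p = 0.02). The macrophage markers summed to 193 to 339 CPM in MEF and 36.9 to 83.8 CPM in bC8FAE. Lyz2 had 130 to 274 CPM in MEF and 10.9 to 35.8 CPM in bC8FAE. The wells overlapped for Csf1r, Tyrobp and Cd68 (8.95 to 36.0 and 15.2 to 50.3 CPM). The part of these markers in the changes above was not tested.

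This count depended on single wells. It was 6 without MEF well 1, and 7 without MEF well 2, bC8FAE well 1 or bC8FAE well 2. Psme4 was no longer called without MEF well 2 (log2 fold change 1.31).

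Between basal and MEF wells, edgeR called none of the 38 members, with 5 at an unadjusted p under 0.05, and 0.687% of all genes were called. The median log2 fold change was 0.015 for the members.

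The remaining media were compared with bCFAE, which served as the shared reference, so these comparisons are not independent of each other or of the first. In bC8FAE, 0 members rose and 3 fell (7.89%; 5 with scaling by the library total alone), while 11.1% of all genes were called. Psma7 had 519, 460 and 365 CPM in bCFAE and 338, 313, 349, 251 and 325 CPM in bC8FAE (log2 fold change −0.45 ± 0.12, adjusted p = 0.0094). Psmb3, a non-catalytic beta subunit, fell by 0.39 (SE 0.13, adjusted p = 0.033) and Psmd8 by 0.35 (SE 0.12, adjusted p = 0.045) on the log2 scale. All bC8FAE wells of these 3 genes were below all bCFAE wells. No member was called without bCFAE well 1, and 1 was called without bCFAE well 2 or bC8FAE well 4.

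In bC6FAE[2], 1 member fell of 38 (5 with scaling by the library total alone), while 8.58% of all genes were called. It was Psmd5, a chaperone of the 19S base, with 69.2, 75.7 and 44.2 CPM in bCFAE and 43.6, 15.5 and 30.7 CPM in bC6FAE[2] (log2 fold change −1.01 ± 0.28, adjusted p = 0.013). The call was lost without bCFAE well 2 or bC6FAE[2] well 2. In bC6FAE[10], 3 members fell (7 with scaling by the library total alone), while 13.6% of all genes were called. Psmd5 had 28.3, 26.9, 46.4 and 46.4 CPM (log2 fold change −0.80 ± 0.24, adjusted p = 0.016). Psmb5, the subunit with chymotrypsin-like activity and the target of bortezomib, had 152, 153 and 149 CPM in bCFAE and 84.9, 108, 102 and 78.9 CPM in bC6FAE[10] (log2 fold change −0.64 ± 0.17, adjusted p = 0.0049). Psmd8 had 445, 485 and 423 CPM against 304, 288, 309 and 323 CPM (log2 fold change −0.52 ± 0.12, adjusted p = 0.0014). The wells of Psmb5 and Psmd8 did not overlap, and those of Psmd5 did.

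The bC6FAE[10] and bC6FAE[2] wells differed in 0 members by edgeR (2 at an unadjusted p under 0.05), with 0.415% of all genes called. Neither bCLFAE nor bCSFAE had a member called against bCFAE (0 and 5 at an unadjusted p under 0.05), while 6.5% and 6.1% of all genes were called. A test for any difference among the 8 media called 18 of the 38 members, beside 48.5% of all genes. The smallest adjusted p was that of Psmd2 (1.7e-06).

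Genes that work with the proteasome were read in the same wells. Their counts stand beside the 34.5% of all genes called in bCFAE against basal, and with lists this short none is read as differing from it. There, 5 of 9 oxidative stress targets of NFE2L2 rose and none fell, led by the cystine transporter Slc7a11 (log2 fold change 6.25) and the peroxiredoxin reductase Srxn1 (1.21). Of 10 cytosolic and mitochondrial heat shock genes tested, 5 rose, among them Cryab (2.83) and Hspa8 (2.72), and Dnaja1 fell (−0.34). Among the ubiquitin genes, the activating enzyme Uba1 (1.01) and Nploc4 (0.53), a cofactor of the VCP unfoldase, rose. Among 10 assembly and associated genes, Pomp, the maturation factor of the 20S core, rose by 0.68 (127 to 150 CPM in basal, 224 to 254 in bCFAE) and Shfm1, a small lid subunit also called Sem1, fell by 0.52. In the NFE2L1 pathway 0 of 5 rose and 2 fell: Nfe2l1 itself by 0.65 and Sel1l, part of the retrotranslocation complex of the endoplasmic reticulum, by 1.05.

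The second question was whether single compounds changed proteasome gene expression. Each compound was compared with all other screening wells of its plate. On plate 3 these included the 5 bC8FAE wells, which held no compound, and on plates 1 and 2 they were compound wells only. Most compounds had 1 well, so the test assumes that this well varies like the others of the plate, and there is no replicate check. Of 211 compounds tested, 203 had no member called, and 35 of those had at least 1 other gene called. On plate 1, 31 members could be tested, and over 87 compounds 10 calls were higher and 0 lower, which was 0.371% of the member tests beside 0.765% of all gene and compound pairs. On plate 2, with 33 members and 84 compounds, 32 calls were higher and 0 lower (1.15%, beside 1.01% of all pairs). On plate 3, with 34 members and 40 compounds, 14 were higher and 3 lower (1.25%, beside 1.43%). A median log2 fold change over the members lay between −0.28 and 0.38 for each plate 1 compound and between −0.16 and 0.37 on plate 3. On plate 2 it ran from −0.25 to 1.39.

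**Figure D3:**
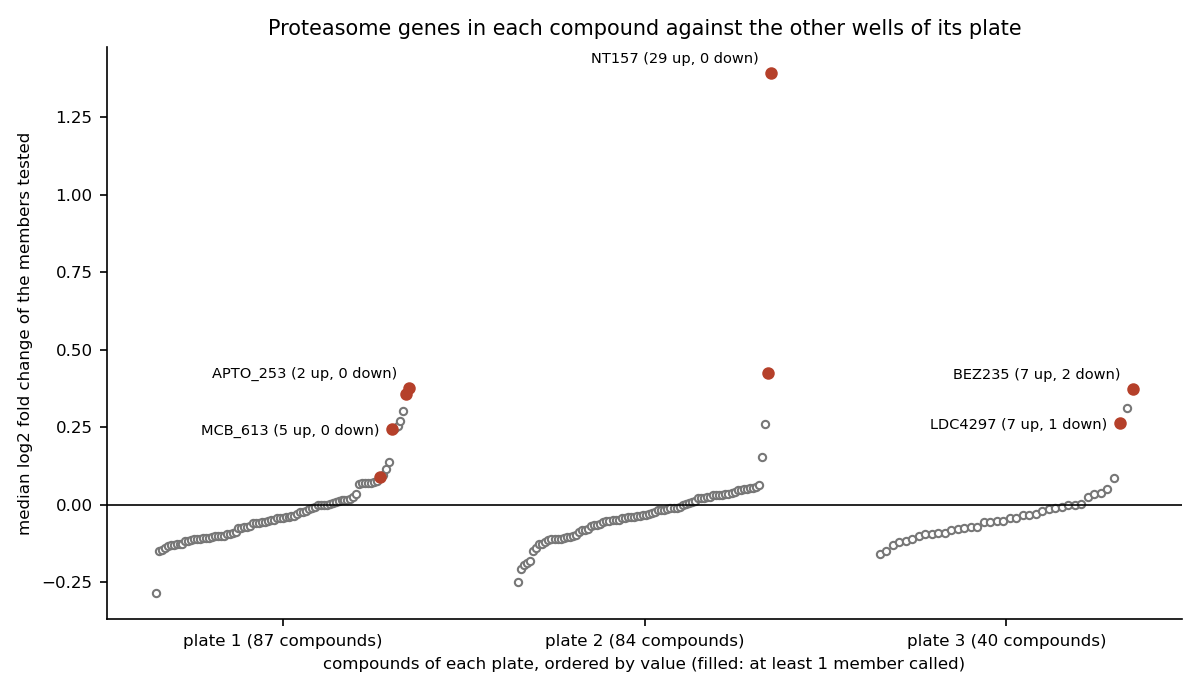
Median log2 fold change of the tested proteasome subunit genes for each of the 211 compounds, by plate and in order of the value; each point is 1 compound against the other screening wells of its plate. NT157 on plate 2 stands at 1.39, and the next highest compound, Avitinib, is at 0.43.

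The summed level of the 40 members varied little between compound wells. Its coefficient of variation was 8.97% on plate 1, 14.4% on plate 2 (5.92% without the NT157 well) and 8.06% on plate 3. No well fell under 0.8 times the median of its plate. The wells above 1.2 times that median were 5 on plate 1, 3 on plate 2 and 2 on plate 3. These sums were scaled by the library total and not by TMM. For the plate 3 wells, LDC4297 and THZ1, that choice moved the median log2 fold change of all genes up by 0.18 and 0.19. The ratios were not recomputed with TMM factors. The highest sums were 8808 CPM for MCB_613 and 8590.04 for APTO_253 on plate 1 (plate median 6261), closely followed there by BAY1217389 with 8534 and no gene called, 15347 for NT157 on plate 2 (plate median 6825) and 9271 for LDC4297 on plate 3 (plate median 6965). Across compound wells the members were weakly correlated with each other. The median Pearson r between pairs of members was 0.092 on plate 1, 0.256 on plate 2 and 0.146 on plate 3, beside 0.030, 0.041 and 0.025 between pairs of all genes of enough counts; these values share library and depth and are given as a description.

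NT157, a tyrphostin known for driving the degradation of the insulin receptor substrates IRS1 and IRS2, was the compound in which the proteasome genes rose as a group. In its single well, of 519263 counts, 29 of 33 members rose and 0 fell (87.9%), while 38.9% of all 5307 genes tested were called. The median log2 fold change was 1.39 for the members and −0.06 over all genes. Of all 40 members, 28 had a higher CPM in this well than in each of the 86 other wells of the plate. All 6 alpha subunits tested rose (median 1.54), as did all 6 beta subunits (median 1.32), all 6 ATPases (median 1.74) and 10 of 11 non-ATPases (median 1.31). Of the 2 chaperones tested 1 rose, and neither of the 2 activators tested was called.

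Among the ATPases, Psmc2 had 289 CPM in the NT157 well, and the other wells had a lowest value of 28.8, a median of 55.9 and a highest of 325 CPM. Its log2 fold change was 2.47 ± 0.29 (SE; adjusted p = 1.5e-11). The highest other well was Avitinib, which is described below. Psmc4 had 713 CPM, beside 169, 233 and 331 CPM (lowest, median and highest of the others), a log2 fold change of 1.78 ± 0.14 (adjusted p = 2.2e-19). The smallest ATPase rise was that of Psmc3 (0.94).

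In the non-ATPase part of the 19S particle, Psmd1, the second large scaffold subunit, had 162 CPM beside 11.0 to 97.4 CPM in the others (median 35.7), and its log2 fold change was 2.30 ± 0.34 (adjusted p = 2.7e-08). Psmd11, a lid subunit tied to proteasome assembly in stem cells, had 216 CPM beside a median of 49.5 (log2 fold change 2.19 ± 0.34, adjusted p = 1.5e-07), again with the Avitinib well at the same 216 CPM. Psmd12 had 300.4 CPM beside 42.2 to 141 CPM (log2 fold change 2.06 ± 0.20, adjusted p = 1.7e-14). Psmd2 had 582 CPM beside 108 to 360.3 CPM. Only Psmd13 of this group was not called, with 358 CPM inside the range of the others (165 to 432) and a log2 fold change of 0.30.

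In the 20S core, Psma1 had 539 CPM beside 119 to 270.5 CPM (median 158), a log2 fold change of 1.93 ± 0.17 (adjusted p = 1.9e-17). Psmb3 had 1234 CPM beside 267 to 526 CPM (log2 fold change 1.76 ± 0.19, adjusted p = 1.9e-12). Psmb4 had 1431 CPM beside 288 to 779 CPM, and Psmb6 had 1363 CPM beside 458 to 822 CPM. The catalytic subunit Psmb5 rose least, with 218 CPM beside 101 to 191 CPM, a log2 fold change of 0.71 ± 0.20 (adjusted p = 0.0033). All 5 of these core genes were above every other well of the plate.

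Of the members with an antioxidant core in their window, Psmd12 rose by 2.06, Psmc6 by 1.70, Psmb6 by 1.25 and Psmb5 by 0.71, Psmd9 had a log2 fold change of −0.06, and Psme4 was not tested. Psmc2, with no such core in its window, rose by 2.47. Motif matches were not tested against the size of the rise.

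The chaperone Psmd5 rose (112 CPM beside 17.6 to 75.7, log2 fold change 1.77), while Psmd9 had 52.0 CPM inside the range of the others (10.8 to 91.7). The activators Psme1 and Psme3 each had a log2 fold change of 0.55 and values inside the range of the others (119 CPM in 45.9 to 153, and 88.6 CPM in 34.9 to 101). The 7 members with too few counts to test were Psma5, Psma8, Psmb7, Psmb11, Psmd10, Psme2 and Psme4. Psma5 had 65.5 CPM from 34 counts beside a median of 8.75, and Psmd10 had 50.1 CPM beside 3.68 to 37.5.

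**Figure D4:**
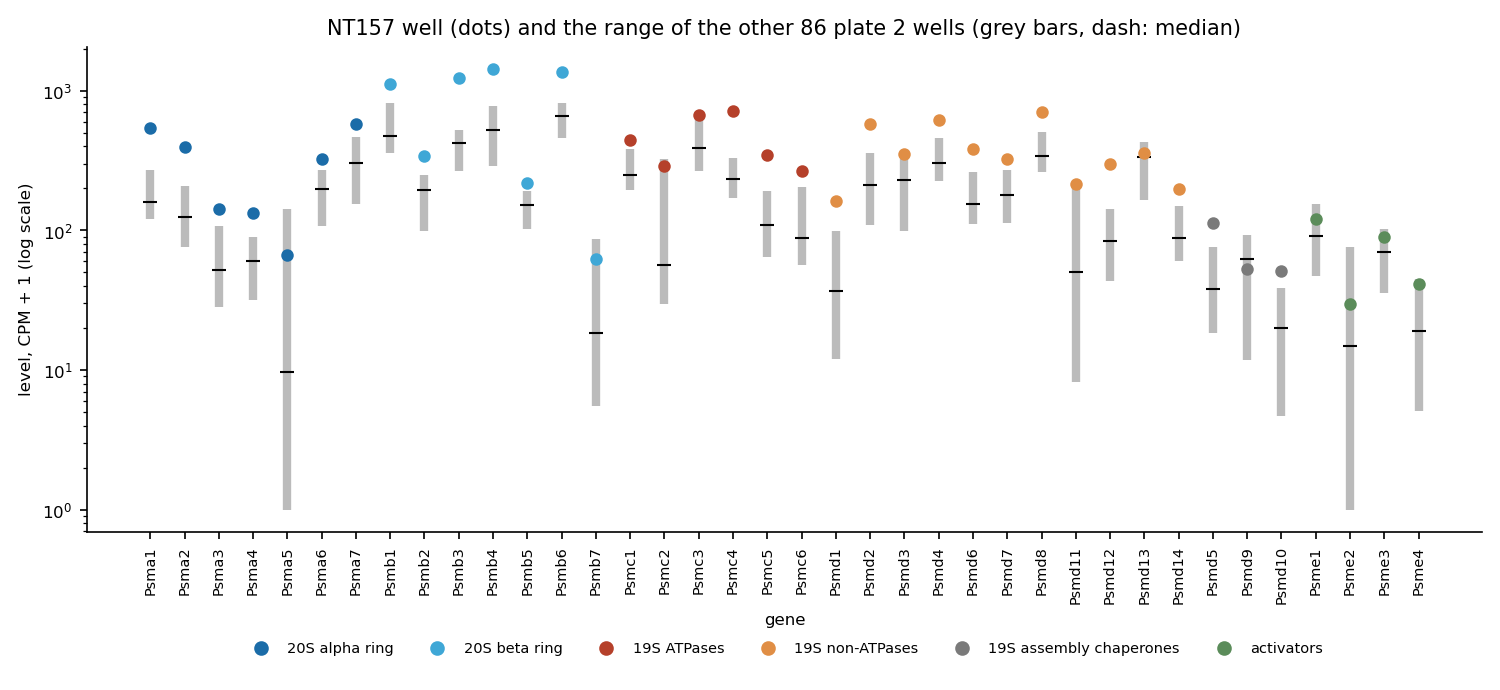
Level of 38 proteasome subunit genes (CPM + 1, log axis; Psma8 and Psmb11 are not drawn) in the NT157 well (dots) and in the other 86 screening wells of plate 2 (grey bars for the range, dash for the median). The NT157 point lies above the range for 28 of the 40 members and inside it for, among others, Psmd13, Psmd9, Psme1 and Psme3.

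Other genes of protein breakdown and stress were read in the NT157 well, where 38.9% of all genes were called. Of 8 NFE2L2 oxidative targets tested, 7 rose. The counts of the heat shock (4 of 10), assembly and associated (3 of 8) and NFE2L1 pathway lists (1 of 4) were near or below that share. Heme oxygenase Hmox1 had 2948 CPM beside 47.3 to 395 CPM (log2 fold change 4.48), the glutathione synthesis gene Gclm 466 CPM beside 8.00 to 74.9 CPM (4.37), and the autophagy receptor Sqstm1 2552 CPM beside 101 to 881 CPM (3.21). Among the ubiquitin genes, Ubb, which encodes ubiquitin itself, rose to 229 CPM beside 0 to 103 CPM (2.83), and Ufd1l (1.73), Rad23b (1.53) and Ube2d3 (0.85) also rose. Among the heat shock genes the largest rise was that of Hspb1 (3.82). The assembly and associated genes that rose were Adrm1, a ubiquitin receptor of the 19S base (1.97), Pomp (1.29) and the deubiquitinase Usp14 (1.12). Nfe2l1 RNA was at 52.0 CPM inside the range of the others (21.6 to 92.7), and the gene of its pathway that rose was Sel1l (1.11). The immunoproteasome subunit Psmb10 had 34.7 CPM beside 16.0 to 94.6 CPM and was not called.

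Cell type markers differed in the same well. The 10 fibroblast markers summed to 3147 CPM, below every other well of the plate (4619 to 14644), but did not all move alike. Thy1 had 108 CPM beside a lowest other value of 594, and Col1a1, Col1a2, Col3a1 and Lum were also below every other well. Vim (1695 CPM in 1018 to 3797), Fn1, Sparc, Pdgfra and Pdgfrb were inside the range of the others. The macrophage markers in the table summed to 641 CPM, above every other well (10.8 to 226), with 4 of 5 detected: Lyz2 at 416, Cd68 at 114, Tyrobp at 106 and Csf1r at 5.78 CPM, and Ptprc at 0. Their part in the proteasome result was not tested. With scaling by the library total alone, the median of all genes moved by −0.16, and the same number of members, 29, was called higher.

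The other compounds of plate 1 that were named by rule raised a few 19S genes. MCB_613, a stimulator of steroid receptor coactivators, raised 5 of 31 members (16.1%), with 12.6% of all genes called. Psmd11 had 176 CPM beside 0 to 121 CPM in the others (median 43.1), a log2 fold change of 1.77 ± 0.41 (adjusted p = 0.0029). Psmc2 had 141 CPM beside 13.7 to 132 CPM (log2 fold change 1.30 ± 0.35, adjusted p = 0.011), and Psmd2 had 371 CPM beside 66.1 to 334 CPM. These 3 were above all other wells, and Psmc3 (0.76) and Psmc4 (0.71) were also called. APTO_253, a compound known for inducing KLF4 and lowering MYC, raised Psmc5 (230 CPM beside 44.0 to 217, log2 fold change 1.05 ± 0.32, adjusted p = 0.027) and Psmc4 (420 CPM beside 138 to 396, log2 fold change 0.82), with 11.5% of all genes called. PF_04979064, a dual PI3K and mTOR inhibitor, raised Psmd12 (167 CPM beside 0 to 140, log2 fold change 1.16) and Psmd4 (477 CPM beside 133 to 431, log2 fold change 0.97 ± 0.23, adjusted p = 0.0035), with 11% of all genes called. The PF_04979064 well had the highest macrophage marker sum of the plate (279 CPM beside 0 to 249), whose part was not tested. All of these plate 1 calls were in the 19S particle, which gave 6 ATPases and 10 non-ATPases of the 31 members tested. APTO_253 and PF_04979064 each had 6.45% of the members called, below their shares of all genes. These calls are therefore listed as a description and not read as particular to the 19S genes. Without the filter on low counts, 2 members were called for MCB_613 and 0 for the other 2 compounds.

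On plate 2, Avitinib, a covalent EGFR inhibitor, had the smallest usable total of the plate (92437 counts). It raised 3 of 33 members, with 4.94% of all genes called. Psmc2 had 30 counts (325 CPM, log2 fold change 2.51 ± 0.52, adjusted p = 0.00062) and Psmd11 had 20 counts (216 CPM, log2 fold change 2.08 ± 0.63, adjusted p = 0.033). Psmb1 rose by 0.85 (adjusted p = 0.048). CCT245737, a CHK1 inhibitor, had no member called by edgeR and 6 at an unadjusted p under 0.05 (median log2 fold change 0.26), with 1.51% of all genes called.

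On plate 3, BEZ235, a dual PI3K and mTOR inhibitor, raised 7 members and lowered 2 of 34 (26.5%), with 20% of all genes called. Psmc2 had 157 CPM beside 39.8 to 125 CPM (log2 fold change 1.40), Psme3 had 129 CPM beside 21.1 to 102 CPM (1.22), and Psmd4 had 384 CPM beside 201 to 379 CPM (0.69). Psmc5 (1.07), Psme1 (0.85), Psmc6 (0.77) and Psmd8 (0.70) also rose. Psmd13 had 157 CPM beside 208 to 402 CPM (log2 fold change −0.81) and Psmb3 had 220.3 CPM beside 280.0 to 531 CPM (−0.71), both below every other well. The macrophage markers in this well summed to 308 CPM, above the other wells of the plate (22.5 to 268), and their part was not tested. With scaling by the library total alone, the median of all genes moved by −0.14 and 3 members were called higher and 2 lower.

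LDC4297 and THZ1, both inhibitors of the transcription kinase CDK7, were next on that plate. LDC4297 raised 7 members and lowered 1 (23.5%), with 27.3% of all genes called. Psmd11 had 172 CPM beside 21.7 to 134 CPM (log2 fold change 1.33), Psma6, an alpha subunit, had 409 CPM beside 141 to 302 CPM (0.93 ± 0.20, adjusted p = 0.00055), and Psma7 had 717 CPM beside 222 to 629 CPM (0.85). Psmb6 had 427 CPM beside 433 to 829 CPM and fell by 0.75 on the log2 scale. The fibroblast markers in this well summed to 3271 CPM, below the other wells of the plate (4716 to 9710), and their part was not tested. With scaling by the library total alone, the median of all genes moved by 0.18, and 11 members were called higher and 1 lower. THZ1 had no member called by edgeR and 8 at an unadjusted p under 0.05 (median log2 fold change 0.31), with 3.08% of all genes called. Trametinib, a MEK inhibitor on plate 1, was the eighth compound with a call and falls outside the naming rule; it raised Psmd8 (533 CPM beside 222 to 518, log2 fold change 0.74 ± 0.26, adjusted p = 0.032), with 17.8% of all genes called. Its fibroblast markers summed to 16794 CPM, above the other wells of plate 1 (4196 to 14582), and their part was not tested.

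Across compounds, Psmc2, Psmc4, Psmd8 and Psmd11 were each called in 4 compounds, and Psmc5 and Psmd4 in 3, all of them higher. NT157 was 1 of the compounds for each gene. These 6 genes all belong to the 19S particle, which gave 6 ATPases and 11 non-ATPases of the 33 members tested on plate 2. The share of all genes called in as many compounds is not given, so these counts are a description only. The compounds of a plate share most of their reference wells.

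Target classes used several compounds in place of replicates, with a plate term. The compounds of a class are different treatments, so the class p-values and SEs do not measure the spread of any single treatment. The 6 wells of mTOR and dual PI3K and mTOR inhibitors were GNE_317, PF_04979064 and PI_103 on plate 1, CC_115 and its hydrochloride on plate 2, which are salt forms of 1 compound, and BEZ235 on plate 3. Against 217 other wells, 4 of 38 members rose and 4 fell (21.1%), with 20.2% of all genes called. These shares are close, so the calls are listed as a description and not read as particular to the proteasome genes. With DESeq2's size factors, 6 were called higher and 3 lower. The wells of PF_04979064 and BEZ235 are those described above. CC_115 and its hydrochloride entered the fit as separate wells.

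The genes that fell were mainly core subunits. Psmb5 fell by 0.54 on the log2 scale (SE 0.12, adjusted p = 0.00035). It had 64.1, 43.3 and 75.5 CPM in the plate 1 wells (median of the others 96.5), 131 and 112 CPM in the plate 2 wells (median 151) and 81.8 CPM in the BEZ235 well (median 141). Psmb3 fell by 0.52 (adjusted p = 0.00063), Psmd13 by 0.47 (adjusted p = 0.00025) and Psma2, an alpha subunit, by 0.38 (adjusted p = 0.049). Each of the 4 was below the plate median in 6 of 6 wells. These tallies use the wells that gave the calls. Of the core genes that were not called, Psma4 was above that median in 0 of 6 wells and Psmb7 in 6 of 6.

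The genes that rose were of the 19S particle, whose 11 non-ATPases had 1 called higher, 1 lower and a median log2 fold change of −0.0004. Psmc5 rose by 0.45 ± 0.14 (adjusted p = 0.01), with 158, 155 and 126 CPM on plate 1 (median of the others 102), 114 and 169 CPM on plate 2 (median 107) and 186 CPM on plate 3 (median 91.2). Psmd4 rose by 0.29 (adjusted p = 0.011), Psmc3 by 0.25 (adjusted p = 0.049) and Psmc2 by 0.51 (adjusted p = 0.04). The wells were above the plate median in 6 of 6 for Psmc5, Psmd4 and Psmc3 and in 5 of 6 for Psmc2. Psmc4, Psmd1, Psmd11 and Psmd12 were also above it in 6 of 6 wells and were not called.

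**Figure D5:**
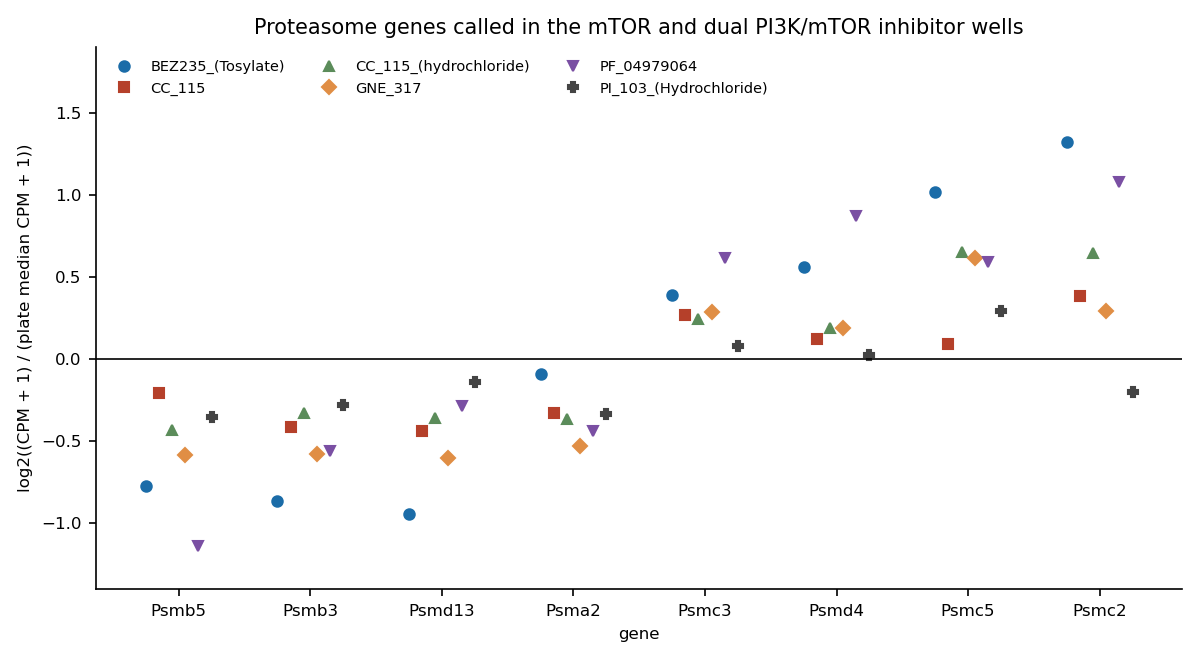
Log2 ratio of the level (CPM + 1) in each of the 6 mTOR class wells to the median of the other screening wells of its plate, for the 8 proteasome subunit genes called in the class; each point is 1 well and the line at 0 is the plate median. Psmb5, Psmb3, Psmd13 and Psma2 lie below 0 in all 6 wells, and 1 Psmc2 well lies below 0 (−0.20).

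The higher calls depended on single compounds. Without BEZ235 0 were higher and 3 lower, without PF_04979064 1 higher and 3 lower, and without GNE_317 2 higher and 3 lower. Within plate 1 alone, with 3 class wells, no member was called.

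The 3 MEK inhibitor wells, all on plate 1, had 1 of 37 members called, with 22.4% of all genes called. Psmd8 had 482 CPM with GDC_0623, 533 CPM with Trametinib and 330.3 CPM (15 counts) with Ro_5126766, beside a median of 291 CPM, and rose by 0.49 ± 0.16 (adjusted p = 0.015). Without GDC_0623 0 members were higher and 1 was lower, without Trametinib none was called, and without Ro_5126766 1 was higher and 1 lower. The 6 usable wells of CDK1, CDK2, CDK7 and CDK9 inhibitors had no member called by edgeR and 2 at an unadjusted p under 0.05, with 1.75% of all genes called.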

How the data were processed

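The authors deposited raw counts per gene and well in 1 table, whose values are all whole. The submitters' processing notes name STAR and mm10. Which version and counting tool were used, and whether strand or molecular identifiers were taken into account, is not given in these sources. Of 274 columns, 258 were given to a plate by the deposited barcode lists and 16 were not used. A further 4 columns were exact repeats of a namesake and were dropped, leaving 254 wells. The barcode lists give the names MCB_613 and CC_115 to more than 1 well each. Which well or wells their repeated columns stand for is not stated, and each name was used as 1 well. Of 222 compound wells, the 218 that reached 10% of the plate's median total were tested. A total of 26 gene names had been turned into dates.

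Tests used edgeR 4.0.16 in R 4.3.3 with TMM scaling and filterByExpr at a minimum count of 10. Media shared 1 fit, and compound fits took the spread over all wells of the plate. Alternatives were library totals, DESeq2 1.42.0, no filter, a minimum of 50% of the plate median, replicate blocks and leaving out wells. Wells were scaled to CPM of the library total for levels, with 1 CPM added for log ratios to a plate median. The test was tried on simulated data, with the same fixed spread for all genes and few changed genes, as many higher as lower. For bCFAE against basal (6868 genes), 30.6% of genes changed by a log2 value of 1 and 84.8% of those changed by 2 were recovered. For NT157 (5295 genes) these shares were 19.6% and 84%. Recovery in the real data, whose spread and share of changed genes may differ, was not measured.

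The members, gene lists, classes and tests were chosen with earlier results of these data known. Media comparisons name up to 8 called members by size and any in the minority direction, with a few others for contrast chosen after their values were seen. On each plate the 3 compounds with the most calls are named, with ties, including those at 0 calls, settled by the size of the median log2 fold change over the members, and with NT157, APTO_253 and MCB_613. Promoter sequences are RefSeq's on GRCm38.p6, whose coordinates are those of mm10. A gene of the ubiquitin list is not reported here, so no count is given for that list.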

Additional observations from a re-analysis of the deposited data

Results flagged for a closer look

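The 2 wells without cells held counts of proteasome subunit genes: 39 counts over 22 members in one (0.911% of its 4280 counts) and 140 counts over 36 members in the other (0.553% of its 25308 counts). The larger total was 5.64% of the median total of the media wells.

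Of 130 groups of 4 or 5 wells examined for a single distant well, 11 had one, and chance gives about 1 in 20. The summed level of all members was 7061 CPM in bCSFAE well 4, below the other 3 (7355 to 7382). The summed level of the 19S non-ATPases was 1766 CPM in MEF well 3, a well of low total, above the other 3 (1441 to 1485). Psmb3 stood at 454 CPM in MEF well 1 (others 346 to 355) and at 393 CPM in bCLFAE well 4 (others 466 to 473). In bC6FAE[10] well 3, Psmc2 was low at 39.4 CPM (others 55.7 to 57.6) and Psme1 high at 81.2 CPM (others 53.4 to 57.6). Psmc5 had 184 CPM in bC8FAE well 4, the media well of lowest total (others 91.2 to 102). Psmd5 had 67.7 CPM in bCLFAE well 3 (others 45.2 to 48.4), and Psme3 had 71.1 CPM in MEF well 2 (others 50.5 to 53.8). Psme2 had 10.8 CPM in bCSFAE well 4 (others 23.4 to 24.2), and Psme4 had 42.7 CPM in bCSFAE well 2 (others 16.1 to 19.8).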

How the results depend on the processing

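Of the counts of called members recomputed under an alternative, 182 stayed within 1.5 times the reported count and 39 did not. Of single-gene results, 513 kept their call, 99 lost it and 0 reversed. The cause of each change was not tested. With scaling by the library total alone the counts were 5 for bC8FAE and 5 for bC6FAE[2] against bCFAE, 7 for bC6FAE[10] against bCFAE, 8 for MCB_613, 1 for CCT245737, 5 for BEZ235, 1 for THZ1 and 3 for the MEK class. DESeq2 gave 2 for bC6FAE[2] against bCFAE, and its size factors gave 2 for the MEK class. Without the 2 media wells of lowest total the counts were 3 for bC6FAE[2] and 5 for bC6FAE[10] against bCFAE. Without the filter on low counts they were 0 for APTO_253, 2 for MCB_613, 0 for PF_04979064, 0 for Trametinib, 2 over plate 1, 3 for BEZ235, 4 for LDC4297, 7 over plate 3, 4 for the mTOR class and 0 for the MEK class. With wells of at least 50% of the plate median the MEK class had 3, and the mTOR class within plate 1 had 0. Leaving out 1 well at a time gave 0 to 0 for basal against MEF, 11 to 15 for bCFAE against basal, 6 to 12 for bC8FAE against MEF, 0 to 3 for bC8FAE, 0 to 1 for bC6FAE[2], 2 to 4 for bC6FAE[10], 0 to 0 for bCLFAE and 0 to 0 for bCSFAE against bCFAE, 0 to 0 for bC6FAE[10] against bC6FAE[2] and 16 to 20 for any difference among media. For the classes, where this was chosen after seeing the data, it gave 3 to 9 for mTOR, 0 to 2 for MEK and 0 to 0 for CDK. Whether the well numbers mark anything shared is not stated. Deviations from the medium mean had a median correlation of 0.0056 between wells of the same number and −0.0027 between others. With few counts per gene, this check cannot exclude a shared origin. A fit with the number as a replicate block gave 2 for bC6FAE[2] against bCFAE and otherwise stayed within 1.5 times. In bCFAE against basal, Psme2, Psme3 and Psmd3 each lost their call when any of several single wells was left out, and Psmc2, Psmb7, Psma7 and Psme1 when 1 was.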
